A study of Homo sapiens with 16 samples.

Results

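PGR encodes the progesterone receptor, and its messenger RNA rose within 2 h of 17β-estradiol (E2) in both a uterine and a breast cancer cell line, from baselines that lay 571-fold apart. The gene was taken by its symbol from the count tables of both lines and is 1 of the 26364 genes in them. Bulk RNA-seq of poly(A) RNA compared Ishikawa, a line from a human adenocarcinoma of the endometrium, with T-47D, a line from a human breast carcinoma. All cells had been moved to phenol-red-free medium with charcoal-stripped serum, which removes steroid hormones, before they received 10 nM E2 for 2, 4 or 8 h, and the 0 h groups received vehicle. Each of the 4 time points had 2 replicates in each line, so 16 libraries were compared. Each organ is represented by 1 cancer cell line, and a difference between the lines cannot be told apart from a difference in their culture and handling. The labels do not say that replicates came from separate cultures, and p-values then measure only the spread between these libraries, which may be technical.

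The progesterone receptor is a steroid receptor of the NR3 family that binds progesterone, leaves its chaperone complex and acts on target genes. In the uterus and the breast, PGR is a long-known target of E2 acting through the estrogen receptor ESR1, so that estrogen prepares these tissues to respond to progesterone. PGR makes a long form, PR-B, and a shorter form, PR-A, from separate start sites. Counts per gene cannot tell these forms apart.

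In GENCODE lifted to GRCh37, the build of the alignments, PGR lies on the minus strand at chr11:100900355-101000544 and spans 100.2 kb. Its longest coding transcript, PGR-202, has 8 exons and 13037 bases, of which the coding sequence takes 21.5% (2799 bases, 933 codons), the 5′ UTR 743 bases and the 3′ UTR 72.8% (9495 bases). An antisense gene, PGR-AS1 (chr11:100999808-101080322, plus strand), overlaps the first 737 bases. The libraries were directional, but the strand setting of the counting is not given in the sources used here, so reads of PGR and PGR-AS1 in this stretch may not have been told apart. PGR-AS1 itself was not analysed here. The 250 bases upstream of the PGR start (chr11:101000545-101000794, minus strand, GRCh37) are printed because they end at the site where PGR-202 begins. This stretch is RefSeq's, and it matched chromosome 11 of GRCh37 at 1 place. Capitals mark a GC box, the motif GGGCGG to which Sp1 binds.
PGR upstream window: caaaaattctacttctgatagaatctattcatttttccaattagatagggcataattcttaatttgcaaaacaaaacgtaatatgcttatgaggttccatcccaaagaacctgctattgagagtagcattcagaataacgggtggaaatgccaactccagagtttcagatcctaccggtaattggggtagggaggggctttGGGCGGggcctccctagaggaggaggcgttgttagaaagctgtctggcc
The GC box began 49 bases before the start site and was present in 42.6% of all 35116 RefSeq windows of this length, on either strand. The half-site of an estrogen response element, GGTCA, was not found in this window, and 32.6% of all windows held it on either strand. The full element, which is this half-site and its reverse complement with 3 bases between them, was not found either and was present in 0.0399% of windows. The AP-1 motif, searched as TGANTCA, was also not found, and 6.57% of windows held it. Any window with the full element also counts for the half-site. An estrogen response element half-site beside Sp1 sites has been described in the PGR gene downstream of the PR-B start. A half-site followed by a pair of GC boxes was found on chr11:100999949-100999978 (minus strand), 566 bases downstream of the start and within the 5′ UTR. In the 30 bases printed next, capitals mark the reverse complement of the half-site and then that of the GC box at both of its places.
PGR half-site stretch: gagcTGACCagcgCCGCCCtcccCCGCCCc
A match of letters is a description of the sequence, and binding was not measured here.

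The libraries held 41177912 to 58918642 counts in Ishikawa cells and 41223813 to 64148903 in T-47D cells. The 12 luminal breast markers summed to 11454 to 14495 CPM (counts scaled to a common library size) in T-47D libraries, with SCGB2A2 and ANKRD30A under 0.1 CPM on average over the libraries of the line. In Ishikawa libraries the sum was 1857 to 2282 CPM, and GATA3, SCGB2A2, TFF1, TFF3, ANKRD30A and PIP were under 0.1 CPM on this average. The 10 endometrial epithelium markers summed to 783 to 876 CPM in Ishikawa libraries and to 1.44 to 2.36 CPM in T-47D libraries, where 7 of them were under 0.1 CPM on this average. Markers of stromal, immune and endothelial cells summed to 165 to 295 CPM in Ishikawa and 79.1 to 105 CPM in T-47D libraries, with PTPRC, CD3E and PECAM1 under 0.1 CPM in both lines on average, and PTPRC and CD3E above it in single libraries. Some markers moved with E2. Of the 10 endometrial markers in Ishikawa cells, 4, 3 and 3 rose and 0, 1 and 1 fell at 2, 4 and 8 h. Of all genes there, 2.61%, 7.66% and 12% rose and 1.74%, 6.6% and 10.1% fell. ALPP, ALPPL2 and MSX1 rose at all 3 times, and PAX8 fell at 4 h and 8 h (log2 fold changes -0.54 and -0.61). The collagen genes COL1A1 and COL3A1 fell in Ishikawa cells at 4 h and 8 h, by 0.60 and 0.71 on the log2 scale at 8 h. Of the 10 luminal markers tested in T-47D cells, 3, 4 and 4 rose and 3, 2 and 1 fell at 2, 4 and 8 h. Of all genes there, 4.9%, 11.1% and 15.4% rose and 4.4%, 10.4% and 14.3% fell. The keratin genes KRT8, KRT18 and KRT19 rose at all 3 times, and SPDEF fell at all 3 (log2 fold changes -0.21, -0.43 and -0.51). TRPS1 fell at 2 h and 4 h, and GATA3 fell at 2 h. In T-47D cells COL1A1 and LUM fell at 8 h by 0.25 and 0.76. So did DCN (adjusted p = 0.0309 by edgeR's quasi-likelihood test), which was under 1 CPM in all T-47D libraries. The part of these markers in the PGR changes was not tested. The Ishikawa libraries of 4 h were not set apart from those of 8 h or 2 h. Replicate 2 of 4 h was nearer to replicate 1 of 8 h (root mean square distance of 0.329 in log2 CPM) than to replicate 1 of 4 h (0.391), and it was also nearer to both 2 h libraries (0.365 and 0.353). Replicate 1 of 4 h was nearer to both 8 h libraries (0.363 and 0.365) than to its own replicate. Replicate 1 of 8 h was nearer to replicate 2 of 2 h (0.345) than to replicate 2 of 8 h (0.353). In T-47D cells, replicate 1 of 2 h was nearer to replicate 1 of 4 h (0.327) than to its own replicate (0.337), and replicate 2 of 8 h was nearer to it (0.330) than to replicate 1 of 8 h (0.332). Ishikawa values are also given with the 4 h and 8 h libraries as 1 group.

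In Ishikawa cells, PGR started from few counts and was 12.6-fold higher at 4 h. Before E2 the libraries held 63 and 46 PGR counts, then 285 and 339 after 2 h, 608 and 609 after 4 h, and 795 and 804 after 8 h. On TMM-scaled library sizes, a scaling that evens out differences in composition, these were 1.37 and 0.987 CPM before E2, 6.73 and 6.20 after 2 h, 15.1 and 14.8 after 4 h, and 13.5 and 18.4 after 8 h. All the E2 libraries lay above both 0 h libraries, the 4 h and 8 h libraries lay above both 2 h libraries, and the 8 h libraries lay on either side of those of 4 h. In order of time, the means were 1.18 ± 0.269, 6.47 ± 0.374, 14.9 ± 0.232 and 15.9 ± 3.43 CPM (SD, n = 2).

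The rise against 0 h was 5.47-fold at 2 h (95% CI 4.12 to 7.28), 12.6-fold at 4 h (9.61 to 16.6) and 13.5-fold at 8 h (10.2 to 17.7). As log2 fold changes these were 2.45 with a standard error of 0.19, 3.66 with 0.19 and 3.75 with 0.18. The adjusted p was 6.17e-07, 3.22e-09 and 2.48e-09 by the quasi-likelihood test of edgeR, adjusted after Benjamini and Hochberg over the 15787 genes tested. At this threshold (adjusted p under 0.05), 2.61%, 7.66% and 12% of all genes tested were higher at 2, 4 and 8 h. The log2 fold change of PGR was the 39th highest of the 15787 genes at 2 h, the 19th at 4 h and the 18th at 8 h. These 3 comparisons share the 0 h libraries, which held the fewest PGR counts of all groups.

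PGR rose again from 2 h to 4 h in Ishikawa cells, by 1.21 on the log2 scale (standard error 0.15, adjusted p = 0.000413 by the same edgeR test, with 1.18% of all genes higher). From 2 h to 8 h the log2 fold change was 1.30 (adjusted p = 0.000255, with 1.06% of all genes higher). Between 4 h and 8 h the change was not detectable, with a log2 fold change of 0.090 (95% CI -0.21 to 0.39, adjusted p = 0.986), and 0.0127% of all genes (2 genes) passed in either direction. With the 4 h and 8 h libraries as 1 group, PGR was higher than at 0 h by 3.71 and higher than at 2 h by 1.25 on the log2 scale. In means of CPM, 35.9% of the 8 h rise was present at 2 h and 93.1% at 4 h. The mean level grew by 2.64 CPM per hour from 0 to 2 h, 4.23 from 2 to 4 h and 0.253 from 4 to 8 h.

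**Figure D1:**
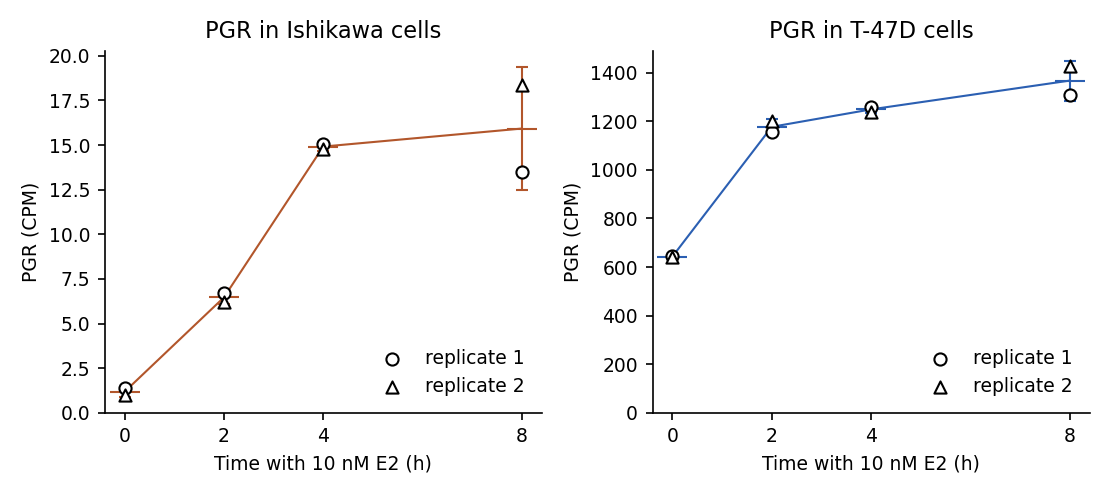
PGR level in CPM (on TMM-scaled library sizes, linear axes from 0) against hours with 10 nM E2 in Ishikawa and T-47D cells. Open symbols are libraries, horizontal ticks joined by lines are means and error bars are SD (n = 2); Ishikawa means went from 1.18 to 15.9 CPM and T-47D means from 643 to 1367 CPM.

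In T-47D cells, PGR was already abundant before E2 and was 2.13-fold higher at 8 h. Before E2 the libraries held 28631 and 26475 counts, then 55437 and 51160 after 2 h, 80827 and 64337 after 4 h, and 65430 and 71362 after 8 h. These were 644 and 642 CPM before E2, 1154 and 1200.3 after 2 h, 1258 and 1239.7 after 4 h, and 1309 and 1426 after 8 h. The groups did not overlap, and their order from lowest to highest was that of the time points. The means were 643 ± 1.55, 1177 ± 32.9, 1249 ± 13.1 and 1367 ± 82.3 CPM (SD, n = 2). PGR took 0.0642% to 0.0644% of all counts at 0 h and 0.130% to 0.141% at 8 h.

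The rise against 0 h in T-47D cells was 1.83-fold at 2 h (95% CI 1.73 to 1.94), 1.94-fold at 4 h (1.84 to 2.05) and 2.13-fold at 8 h (2.01 to 2.25). The log2 fold changes were 0.87, 0.96 and 1.09, each with a standard error of 0.039. The adjusted p was 1.93e-11, 5.62e-12 and 6.51e-13 by edgeR's quasi-likelihood test over 15594 genes, of which 4.9%, 11.1% and 15.4% were higher at 2, 4 and 8 h. The PGR log2 fold change was the number 401, 351 and 310 from the highest. From 2 h to 8 h PGR rose by 0.22 on the log2 scale (adjusted p = 0.000638 by the same test, with 9.53% of all genes higher). The steps in between did not pass on their own. The log2 fold change from 2 h to 4 h was 0.086 (95% CI 0.0052 to 0.17, adjusted p = 0.305, with 3.4% of genes passing in either direction), and that from 4 h to 8 h was 0.13 (0.050 to 0.21, adjusted p = 0.0699, with 3.42%). The 4 h to 8 h step is near the threshold and passed when replicate 1 of 8 h (log2 fold change 0.19, adjusted p = 0.0105) or either replicate of 0 h (0.13 without each, adjusted p = 0.0424 without replicate 1 and 0.0429 without replicate 2) was left out. In means of CPM, 73.7% of the 8 h rise was present at 2 h and 83.6% at 4 h. The mean level grew by 267 CPM per hour from 0 to 2 h, by 35.9 from 2 to 4 h and by 29.6 from 4 to 8 h.

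Between the lines, PGR was higher in T-47D cells at every time point, and the gap was smaller with E2. Scaled over all 16 libraries, the 0 h libraries held 661 and 655 CPM in T-47D and 1.34 and 0.961 CPM in Ishikawa cells. The T-47D level was 571-fold that of Ishikawa cells at 0 h (95% CI 475 to 687), 194-fold at 2 h (166 to 226), 88.5-fold at 4 h (76.7 to 102) and 90.6-fold at 8 h (78.6 to 104). The adjusted p was 1.43e-22, 1.67e-22, 6.29e-22 and 5.17e-22 by edgeR's quasi-likelihood test over 17090 genes. Of all genes, 39.5%, 40.1%, 40.8% and 40.8% were higher in T-47D cells at these times. In order of level, the groups ran from Ishikawa at 0, 2, 4 and 8 h to T-47D at 0, 2, 4 and 8 h. The neighbours in this order whose difference did not pass the adjusted threshold were Ishikawa at 4 and 8 h, whose libraries overlapped, and T-47D at 2 and 4 h and at 4 and 8 h, whose libraries did not. The lowest T-47D mean was 42.3-fold the highest Ishikawa mean, a step for which no test was made. In these bulk libraries, fewer cells with PGR and less PGR RNA per cell cannot be told apart.

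The difference in response was tested as the interaction of line and time over all 16 libraries. The log2 fold change of PGR was smaller in T-47D than in Ishikawa cells, with a difference of -1.56 at 2 h (95% CI -1.96 to -1.16), -2.69 at 4 h (-3.06 to -2.32) and -2.66 at 8 h (-3.02 to -2.29). The adjusted p was 1.83e-05, 3.50e-09 and 2.51e-09 by edgeR's quasi-likelihood test, and 1.28%, 2.83% and 4.7% of all genes had a smaller log2 fold change in T-47D cells at these times. On the CPM scale the order was the other way round, since the T-47D mean grew by 724 CPM over 8 h and the Ishikawa mean by 14.7 CPM. The log2 changes between E2 times differed too. A test of these steps cannot tell a different timing apart from a smaller response over all times. From 2 h to 4 h the log2 change was lower in T-47D cells, with a difference of -1.13 (adjusted p = 0.000102 by the same test, 0.544% of genes), and from 2 h to 8 h with a difference of -1.09 (adjusted p = 4.25e-05, 1.5% of genes). From 4 h to 8 h the difference was 0.034 (95% CI -0.22 to 0.29, adjusted p = 0.979).

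**Figure D2:**
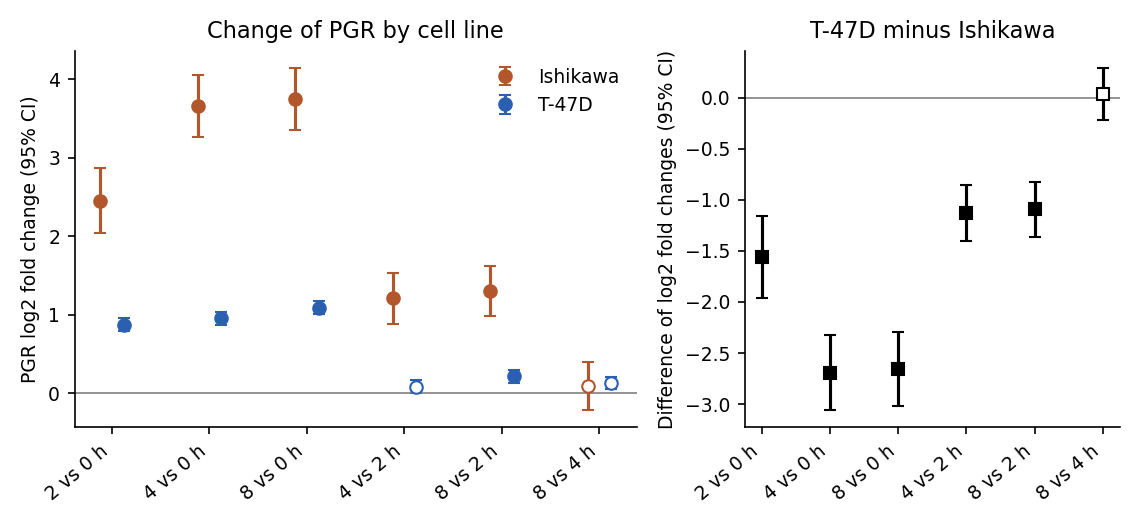
PGR log2 fold change for each pair of time points by cell line (left) and the difference between the lines, T-47D minus Ishikawa (right), with 95% confidence intervals from edgeR. Filled symbols passed an adjusted p of 0.05; the Ishikawa changes against 0 h (2.45 to 3.75) lie above the T-47D ones (0.87 to 1.09), and only the 8 h against 4 h difference (0.034) is open on the right.

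Levels were compared between genes per kb of exon (CPM per kb), with 14692 bases of annotated PGR exon. In Ishikawa cells PGR stood at 0.0802 ± 0.0183 CPM per kb (SD, n = 2) at 0 h and 1.08 ± 0.234 at 8 h, beside a median of 4.43 and 4.38 over 15239 genes. Between 4.34% and 6.5% of these genes were lower than PGR at 0 h, and between 26.2% and 30% at 8 h. In T-47D cells PGR stood at 43.8 ± 0.105 CPM per kb at 0 h and 93.1 ± 5.61 at 8 h, beside medians of 4.21 and 4.29 over 14999 genes. There PGR was number 901 and 893 from the top in the 0 h libraries and number 348 and 306 in the 8 h libraries. PGR ended the time course below the median gene in Ishikawa cells and stayed far above it in T-47D cells.

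Among 5 receptors of the NR3 family, PGR was the most abundant in T-47D cells at all 4 times and among the least abundant in Ishikawa cells. At 0 h in T-47D cells, ESR1 stood at 12 CPM per kb, NR3C1, the glucocorticoid receptor, at 5.15, NR3C2, the mineralocorticoid receptor, at 1.2 and ESR2, the second estrogen receptor, at 0.0593. At 0 h in Ishikawa cells, ESR1 led with 17.5 CPM per kb, followed by NR3C1 with 7.32, NR3C2 with 2.98, PGR with 0.0802 and ESR2 with 0.0487. ESR2 was at 0.0498 ± 0.0242 CPM per kb at 8 h in Ishikawa cells, where PGR had reached 1.08 and lay below NR3C2 at 1.86.

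**Figure D3:**
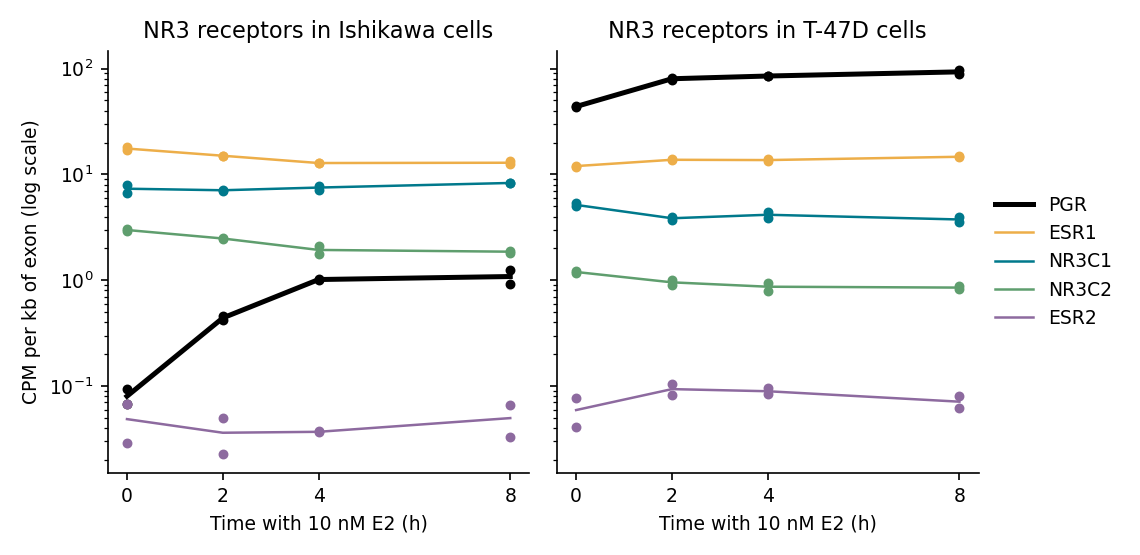
Levels of 5 NR3 receptors in CPM per kb of exon (log axis) against hours with 10 nM E2 in Ishikawa and T-47D cells; points are libraries and lines join means of 2. PGR (thick black line) went from 0.0802 to 1.08 in Ishikawa cells, and was the highest receptor in T-47D cells at each time (43.8 to 93.1).

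None of ESR1, ESR2, NR3C1 and NR3C2 rose in both lines. ESR1, the receptor through which E2 is known to act on PGR, fell in Ishikawa cells and rose in T-47D cells. In Ishikawa cells ESR1 stood at 247 and 234 CPM before E2, 205 and 207 after 2 h, 174 and 177 after 4 h, and 172 and 182 after 8 h, with both libraries of every E2 time below both 0 h libraries. Its log2 fold changes were -0.23, -0.45 and -0.45 (adjusted p = 0.0298, 5.33e-05 and 6.05e-05 by edgeR's quasi-likelihood test, with 1.74%, 6.6% and 10.1% of all genes lower). The 2 h call for ESR1 in Ishikawa cells was lost without replicate 1 of 0 h, replicate 1 of 2 h or replicate 2 of 2 h (-0.18, -0.22 and -0.23, with adjusted p = 0.062, 0.296 and 0.28). In T-47D cells ESR1 stood at 166 and 163 CPM before E2, 186 and 191 after 2 h, 182 and 193 after 4 h, and 199 and 203 after 8 h, and its log2 fold changes were 0.20, 0.19 and 0.29 (adjusted p = 0.006, 0.00464 and 5.68e-05). The T-47D call for ESR1 was lost without replicate 2 at 2 h (0.19, adjusted p = 0.0921) and without replicate 2 at 4 h (0.15, adjusted p = 0.0894). The E2 libraries of ESR1 lay on opposite sides of the 0 h libraries in the 2 lines, while PGR rose in both.

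NR3C2 fell at 4 h and 8 h in both lines, by 0.63 and 0.68 in Ishikawa and by 0.46 and 0.49 on the log2 scale in T-47D cells (edgeR's quasi-likelihood test). NR3C1 fell at 2, 4 and 8 h in T-47D cells by 0.42, 0.31 and 0.46. Without replicate 2 of 4 h, the 4 h calls of NR3C1 and NR3C2 in T-47D cells were lost (adjusted p = 0.0745 and 0.146), and that of NR3C2 also without replicate 1 of 0 h (adjusted p = 0.0634). ESR2 had 0.432 to 1.12 CPM in all groups and passed no test. In T-47D cells 4.4%, 10.4% and 14.3% of all genes were lower at 2, 4 and 8 h.

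Of 12 factors known to act on PGR transcription, 11 were tested in Ishikawa cells, and 3, 1 and 1 rose while 1, 1 and 1 fell at 2, 4 and 8 h. In T-47D cells all 12 were tested, and 3 rose and 4 fell at each time. Of all genes tested at 2, 4 and 8 h, 2.61%, 7.66% and 12% rose and 1.74%, 6.6% and 10.1% fell in Ishikawa cells, and 4.9%, 11.1% and 15.4% rose and 4.4%, 10.4% and 14.3% fell in T-47D cells. NRIP1, a corepressor of nuclear receptors, rose in both lines at every time. NRIP1 stood at 46 and 41 CPM before E2 and 90.9 and 91.1 after 2 h in Ishikawa cells, and at 58.8 and 52 and then 96.8 and 102 CPM in T-47D cells, with 2 h log2 fold changes of 1.07 and 0.84 (adjusted p = 9.05e-08 and 1.58e-08 by edgeR's quasi-likelihood test). TFAP2A, an AP-2 factor, fell in T-47D cells from 209 and 219 CPM at 0 h to 129 and 140 at 2 h (log2 fold change -0.67, adjusted p = 2.36e-08) and stood at 5.86 to 6.62 CPM in the Ishikawa libraries, where its changes did not pass. NCOA3, a coactivator of steroid receptors, fell in T-47D cells at 2, 4 and 8 h, by 0.30, 0.24 and 0.40 on the log2 scale. FOXA1, a pioneer factor for ESR1, fell at 2 h in T-47D cells (420.2 and 403 to 289 and 309 CPM, log2 fold change -0.46, adjusted p = 1.14e-06). GATA3, a luminal factor, was between 991 and 1204 CPM in T-47D libraries and at 0 to 0.0913 CPM in Ishikawa libraries. GATA2, FOXO1 and NCOR1 passed no test in either line.

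The median log2 fold change of these factors lay between -0.07 and 0.03 across both lines and the 3 times, near that of all genes tested (-0.01 to 0.00). In T-47D cells, 1 left-out library ended the calls of GATA3 and ESR1 at 2 h (GATA3 adjusted p = 0.084 without replicate 1 of 2 h), and of ESR1, FOXA1 and KLF9 at 4 h. In Ishikawa cells, TFAP2C, another AP-2 factor, rose at 2 h by 0.94 on the log2 scale, a call that was lost without replicate 2 of 0 h (0.84, adjusted p = 0.136) or replicate 1 of 2 h (0.84, adjusted p = 0.0671).

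The chaperones and cochaperones that hold steroid receptors ready for hormone rose in both lines for the larger part of the list. Of 12 genes, all tested, 0, 9 and 10 rose in Ishikawa cells at 2, 4 and 8 h, and 3, 7 and 8 rose in T-47D cells, where 2.61%, 7.66% and 12% of all genes rose in Ishikawa and 4.9%, 11.1% and 15.4% in T-47D cells. No gene of this list fell in either line by edgeR's or by DESeq2's test. At an unadjusted p under 0.05 by edgeR's test 1 fell, at 4 h in T-47D cells. Of all genes, 1.74%, 6.6% and 10.1% fell in Ishikawa and 4.4%, 10.4% and 14.3% in T-47D cells at 2, 4 and 8 h. Of the 0 that rose at 2 h in Ishikawa cells, DESeq2 also called 0, and 2 were higher at an unadjusted p under 0.05. Their median log2 fold change was 0.04, 0.25 and 0.24 in Ishikawa and 0.07, 0.16 and 0.22 in T-47D cells, beside -0.01 to 0.00 over all genes. FKBP4, which encodes FKBP52, an immunophilin of the progesterone receptor complex, had the largest change of the list in T-47D cells. FKBP4 stood at 496 and 487 CPM before E2, 804 and 804 after 2 h, 961 and 987 after 4 h, and 1221 and 1211 after 8 h in T-47D cells, with no overlap between groups. Its log2 fold changes there were 0.71, 0.99 and 1.31 (adjusted p = 3.70e-11, 3.60e-13 and 1.07e-14 by edgeR's quasi-likelihood test). In Ishikawa cells FKBP4 stood at 376 and 375 CPM before E2 and 473 and 492 after 8 h, and its log2 fold change was 0.12 at 2 h (adjusted p = 0.293), 0.43 at 4 h and 0.36 at 8 h (adjusted p = 0.000133 and 0.000527).

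HSPA8, the constitutive HSP70, rose at 4 h and 8 h in both lines, by 0.48 and 0.44 in Ishikawa and by 0.47 and 0.53 in T-47D cells on the log2 scale. HSP90AA1, which encodes an HSP90, rose by 0.26 at both times in Ishikawa and by 0.17 and 0.24 in T-47D cells. Its Ishikawa calls were lost at 4 h without replicate 2 of 0 h or replicate 1 of 4 h (adjusted p = 0.209 and 0.231 by edgeR's quasi-likelihood test) and at 8 h without replicate 2 of 0 h or replicate 2 of 8 h (adjusted p = 0.166 and 0.0521). CDC37 and STUB1 passed no test in either line. The Ishikawa counts rested on single libraries. Of the 9 cochaperones that rose at 4 h, 4 kept their call without replicate 2 of 0 h, and 4 without replicate 1 of 4 h. Of the 10 that rose at 8 h, 4 kept their call without replicate 2 of 0 h and 6 without replicate 2 of 8 h. FKBP4, HSPA8 and DNAJB1 were among those that kept it in every such fit. In T-47D cells, 5 of 7 at 4 h and 6 of 8 at 8 h kept their call whichever library was left out.

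The 7 genes listed as membrane progestin receptors, which lie outside the NR3 family, moved in both directions in Ishikawa cells and fell in part in T-47D cells. Progestin binding was not measured here. In Ishikawa cells, 1, 1 and 2 of 7 rose and 0, 1 and 2 fell at 2, 4 and 8 h. In T-47D cells, 0 of 6 tested rose and 1, 2 and 3 fell, and DESeq2 and the unadjusted p under 0.05 of edgeR's test also gave 0 that rose. The shares of all genes were 2.61%, 7.66% and 12% higher and 1.74%, 6.6% and 10.1% lower in Ishikawa cells. In T-47D cells they were 4.9%, 11.1% and 15.4% higher and 4.4%, 10.4% and 14.3% lower. PGRMC2 rose at 8 h in Ishikawa cells (143 and 123 CPM before E2, 171 and 165 after 8 h, log2 fold change 0.33, adjusted p = 0.00339 by edgeR's quasi-likelihood test) and fell at 8 h in T-47D cells (213 and 194 to 162 and 176 CPM, -0.27, adjusted p = 0.00108). PAQR5 also rose at 8 h in Ishikawa (log2 fold change 0.43) and fell in T-47D cells (-0.49). The PAQR5 calls at 8 h were lost in Ishikawa cells without replicate 2 of 0 h or replicate 2 of 8 h (adjusted p = 0.0566 and 0.0897) and in T-47D cells without replicate 2 of 0 h or replicate 1 of 8 h (adjusted p = 0.165 and 0.107). Of the calls in this list, 0 of 1, 0 of 2 and 1 of 4 in Ishikawa cells, and 0 of 1, 0 of 2 and 2 of 3 in T-47D cells, at 2, 4 and 8 h, held whichever library was left out. PGRMC1 was at 238 to 267 CPM on average in Ishikawa and 87 to 91.6 CPM in T-47D cells and passed no test.

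Genes known to be induced by progestins through PGR were described as a readout of the receptor, although no progestin was given and the medium was stripped of steroids. Of 22 such genes, 17 were tested in Ishikawa cells, and 3, 2 and 3 rose while 2, 1 and 3 fell at 2, 4 and 8 h. In T-47D cells 16 were tested, and 2, 2 and 3 rose while 2, 5 and 6 fell. Beside these, 2.61%, 7.66% and 12% of all genes rose and 1.74%, 6.6% and 10.1% fell in Ishikawa cells. In T-47D cells 4.9%, 11.1% and 15.4% rose and 4.4%, 10.4% and 14.3% fell. The median log2 fold change of the list was 0.07, -0.09 and 0.08 in Ishikawa and 0.03, -0.10 and -0.26 in T-47D cells. HSD11B2, which inactivates cortisol, rose in Ishikawa cells from 2.04 and 2.45 to 8.27 and 7.17 CPM by 8 h (log2 fold change 1.78, adjusted p = 6.57e-06 by edgeR's quasi-likelihood test). CCND1, the cyclin D1 gene and an E2 target itself, rose at all 3 times in both lines, by 0.43, 0.30 and 0.39 in Ishikawa and by 0.48, 0.19 and 0.43 in T-47D cells. The T-47D call for CCND1 at 4 h was lost without replicate 1 of 0 h or replicate 1 of 4 h (adjusted p = 0.0851 and 0.0562).

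ZBTB16, the PLZF gene and a direct progestin target, rose in T-47D cells from very few counts. Its 0 h libraries held 0 and 10 counts (0 and 0.242 CPM) and its 8 h libraries 54 and 47 (1.08 and 0.939 CPM), with an adjusted p of 0.000543 by edgeR's quasi-likelihood test. ZBTB16 was at 0 counts in all 8 Ishikawa libraries. TSC22D3, the GILZ gene, fell in T-47D cells from 21.9 and 21.3 CPM to 11.6 and 11.4 at 8 h (log2 fold change -0.91, adjusted p = 2.30e-07). KLF9 rose at 2 h in Ishikawa cells (4.02 and 3.82 to 9.09 and 9.02 CPM, log2 fold change 1.21, adjusted p = 0.00018) and fell at 4 h and 8 h in T-47D cells, by 0.46 and 0.66 on the log2 scale. The T-47D call for KLF9 at 4 h was lost without replicate 1 of 0 h (adjusted p = 0.0505). ARID5B, a chromatin regulator, fell in both lines at every time, from 53.7 and 51 to 17.1 and 16.6 CPM at 2 h in Ishikawa (log2 fold change -1.64, adjusted p = 5.01e-07) and from 156 and 162 to 77.3 and 77 CPM in T-47D cells (-1.04, adjusted p = 4.84e-11). PAEP and IHH were too low to be tested in either line. Of the calls in this list, 4 of 5, 3 of 3 and 3 of 6 in Ishikawa cells and 3 of 4, 3 of 7 and 7 of 9 in T-47D cells held whichever library was left out, and the T-47D count at 4 h was lowest, at 4 of 7, without replicate 1 of 4 h.

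**Figure D4:**
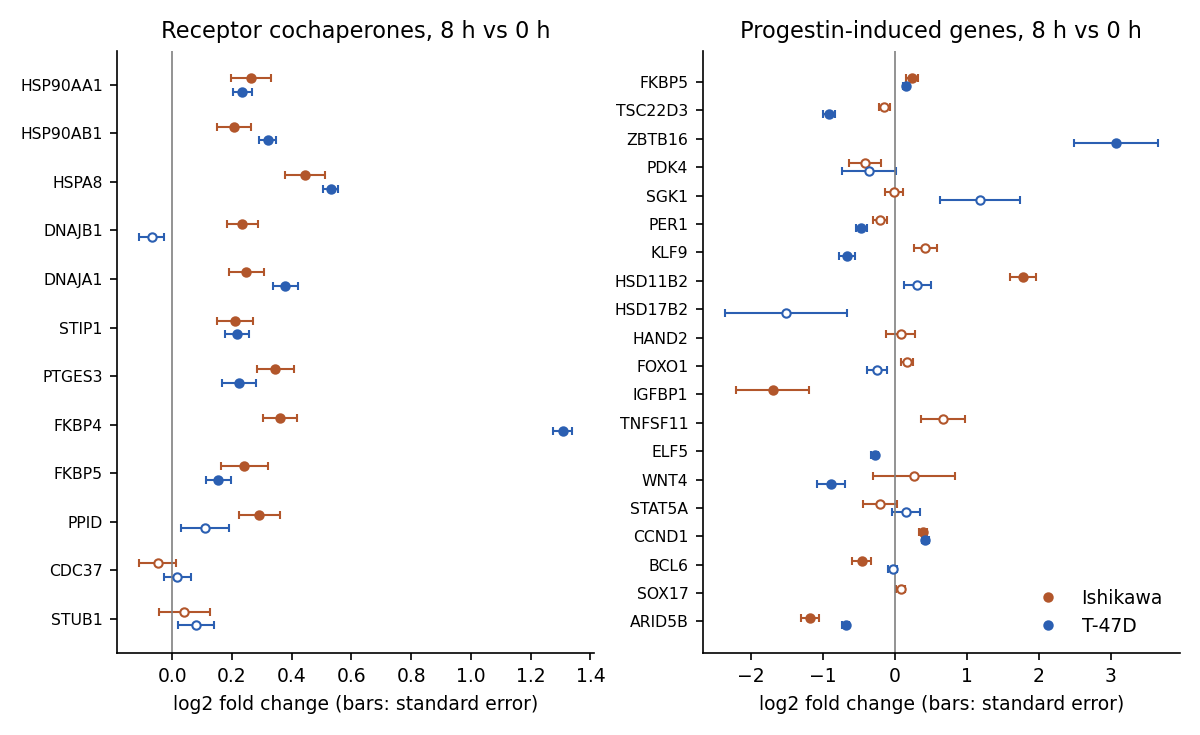
Log2 fold change at 8 h against 0 h of the tested receptor cochaperones (left) and progestin-induced genes (right) in both lines, with bars for the standard error. Filled symbols passed an adjusted p of 0.05. FKBP4 in T-47D cells (1.31) stands apart on the left. Members of the right-hand list lie on both sides of 0, from ZBTB16 in T-47D cells (3.08) to IGFBP1 in Ishikawa cells (-1.70). IGFBP1 there had few counts, 24 and 40 at 0 h and 16 and 6 at 8 h. Its call was lost without replicate 2 of 0 h or replicate 2 of 8 h.

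PGR was set beside the genes around it on chromosome 11. Of 13 names listed for the region, 10 were in the tables and 9 were tested in each line. At 2, 4 and 8 h, 0, 1 and 1 rose and 0, 1 and 0 fell in Ishikawa cells, and 1, 3 and 2 rose and 0 fell in T-47D cells, where DESeq2 and edgeR's unadjusted p under 0.05 also gave 0 that fell. Over all genes at these times, 2.61%, 7.66% and 12% were higher and 1.74%, 6.6% and 10.1% lower in Ishikawa cells. In T-47D cells, 4.9%, 11.1% and 15.4% of all genes were higher and 4.4%, 10.4% and 14.3% lower. TRPC6, a cation channel gene 321.8 kb upstream of PGR (chr11:101322295-101743293, minus strand), was the neighbour that rose in both lines. TRPC6 stood at 1.82 and 1.82 CPM before E2, 3.18 and 3.4 after 2 h, 4 and 3.45 after 4 h, and 3.7 and 3.98 after 8 h in T-47D cells, with log2 fold changes of 0.85, 1.03 and 1.08 (adjusted p = 0.00271, 0.000205 and 9.20e-05 by edgeR's quasi-likelihood test). In Ishikawa cells TRPC6 stood at 0.347 and 0.451 CPM before E2 (16 and 21 counts) and 1.56 and 1.35 CPM after 8 h (92 and 59 counts). Its log2 fold change there was 1.17 at 2 h (adjusted p = 0.0815), 1.71 at 4 h and 1.86 at 8 h (adjusted p = 0.00382 and 0.00137). ARHGAP42, the nearest tested neighbour at 35.68 kb, fell at 4 h in Ishikawa cells by 0.42 on the log2 scale, a call that was lost without replicate 1 of 0 h or either replicate of 4 h (adjusted p = 0.255, 0.0659 and 0.174). BIRC3 rose at 4 h and 8 h in T-47D cells, by 0.79 and 0.77, and lost the 8 h call without replicate 1 of 0 h or replicate 1 of 8 h (adjusted p = 0.128 and 0.0685). BIRC3 lost the 4 h call without replicate 1 of 0 h or replicate 2 of 4 h (adjusted p = 0.127 and 0.094). TMEM133, which GENCODE holds within ARHGAP42 so that reads of the pair may be shared, rose at 4 h in T-47D cells from 0.36 and 0.291 to 1.21 and 1 CPM (log2 fold change 1.76, adjusted p = 0.00567), and lost this call without replicate 1 of 4 h (adjusted p = 0.0513). YAP1, at 209 to 302 CPM on average, passed no test. The median log2 fold change of the neighbours was 0.12, -0.05 and -0.12 in Ishikawa and 0.12, 0.14 and 0.03 in T-47D cells.

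The genes with the pattern most like PGR were found in each line by Pearson's r of log2 CPM over that line's 8 libraries, which share depth and time labels. Among 13181 genes with a mean of at least 50 counts in Ishikawa cells, FAM136A (r = 0.998), NCOA4 (0.996), MMP17 (0.994), XXYLT1 (0.992) and PRPF4 (0.992) were highest, and 240 genes were over 0.95. Of these, MMP17 had log2 fold changes near those of PGR, with 2.53, 3.71 and 3.67 at 2, 4 and 8 h, whereas FAM136A changed by 0.20, 0.30 and 0.30. Among 13027 genes in T-47D cells, PXK (0.997), UTP3 (0.996), ARID2 (0.996), STC2 (0.995) and PPM1K (0.995) were highest, and 199 were over 0.95. PXK had log2 fold changes of 1.07, 1.14 and 1.29, and STC2, a secreted glycoprotein gene, of 1.85, 1.92 and 2.34. No gene was in both sets of 5.

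Over both lines, likeness was the Euclidean distance between the 6 log2 fold changes against 0 h of a gene and of PGR, among 17090 genes. The nearest were ALPPL2 (0.639), LOC102546294 (1.26), CA12 (1.37), CACNA1I (1.55) and COL6A5 (1.59). CA12, a carbonic anhydrase gene, was the one of them with a high level in T-47D cells (374 CPM before E2 and 598 after 8 h) and rose in Ishikawa cells from 4.79 to 36.8 CPM. Its log2 fold changes were 1.94, 2.86 and 2.94 in Ishikawa and 0.56, 0.70 and 0.68 in T-47D cells, and all 6 passed in the 16-library fit. ALPPL2, an alkaline phosphatase gene and one of the endometrial markers, went from 1.77 to 20.9 CPM in Ishikawa cells and was at 0.0726 to 0.154 CPM in T-47D cells, where its changes did not pass. CACNA1I, a calcium channel gene, went from 1.42 to 10.5 CPM in Ishikawa cells and stood at 3.37, 5.68, 4.65 and 3.69 CPM at 0, 2, 4 and 8 h in T-47D cells. LOC102546294 and COL6A5 had no count at 0 h in Ishikawa cells, so their place near PGR rests on fitted values without a baseline.

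**Figure D5:**
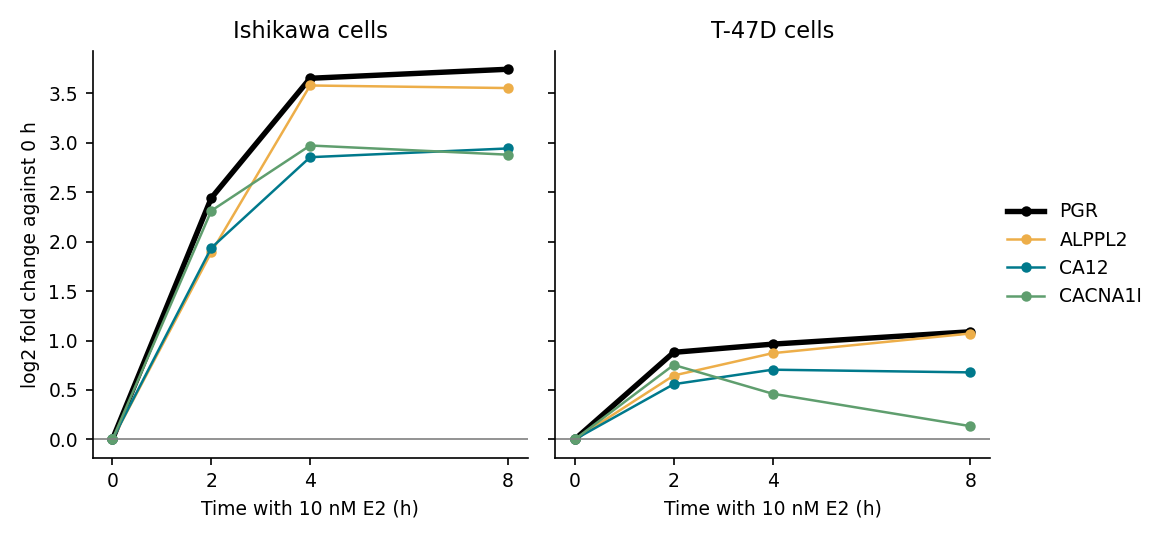
Log2 fold change against 0 h of PGR (thick black line) and of the nearest genes over both lines that had counts at 0 h in Ishikawa cells, by hours with 10 nM E2. In the 16-library fit PGR reached 3.75 in Ishikawa and 1.09 in T-47D cells, and CA12 2.94 and 0.68, and ALPPL2 in T-47D cells was at 0.0726 to 0.154 CPM.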

How the data were processed

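RNA-seq was made in 16 libraries. The authors used HISAT2 for alignment to hg19, SAMtools for file conversion and featureCounts for assignment to genes of the UCSC Known Genes set. Each line has 1 deposited table, which holds raw counts. Versions, the strand setting and the handling of read pairs and multiple alignments are not given in the sources used here. Even numbers made up 71.2% to 74.6% of counts from 1 to 10, so a count need not be 1 fragment.

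The deposited counts were analysed with edgeR 4.0.16 in R 4.3.3 (filterByExpr, TMM, quasi-likelihood F-test, Benjamini-Hochberg over all genes tested, adjusted p under 0.05), with the 4 time points of a line in 1 fit. Line differences used 8 line-by-time groups over 16 libraries. Groups came from the sample titles. Standard errors came from the F statistic and the size of the log2 fold change. Log2 CPM used a prior count of 2. The script was tested on simulated data. GENCODE on GRCh37 gave exon lengths for 90.47% of symbols. Upstream windows came from RefSeq (GRCh38.p14) and were located in GRCh37 by sequence match.

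PGR and the gene lists were chosen with earlier results of these data known. Named genes are PGR, list members, the 5 genes per line with the highest r to PGR (mean of at least 50 counts) and the 5 nearest over 6 log2 fold changes. ZBTB16 and other list members were picked for the text from the lists after their values were seen. Alternatives were DESeq2 1.42.0, RLE scaling, testing without a filter, a minimum of 10 counts per library, a replicate block, only the groups compared, each library left out, counts divided by 2, 4 h and 8 h as 1 group, and adjusted p of 0.01 and 0.1 for lists. Some list results are not reported here.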

Additional observations from a re-analysis of the deposited data

Results flagged for a closer look

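The response to E2 differed between the lines by the test of the interaction itself for PGR and for 17 other genes of the lists (edgeR's quasi-likelihood test, adjusted p under 0.05 over 17090 genes). For PGR the T-47D log2 fold change minus the Ishikawa one was -1.56, -2.69 and -2.66 for 2, 4 and 8 h against 0 h. It was -1.13 for 4 h against 2 h and -1.09 for 8 h against 2 h. Of the list genes, the T-47D log2 fold change lay above the Ishikawa one for 6. The share of all genes with a larger log2 fold change in T-47D cells is not given here, so this count was not set against it. For ESR1, which fell in Ishikawa and rose in T-47D cells, the difference was 0.44, 0.66 and 0.74 at 2, 4 and 8 h (adjusted p = 0.00039, 1.90e-06 and 3.40e-07). For FKBP4, whose log2 fold change was larger in T-47D cells, it was 0.60, 0.57 and 0.94 (adjusted p = 6.80e-06, 1.07e-05 and 1.11e-08). For ARID5B, which fell in both lines and by more in Ishikawa cells, it was 0.61, 0.78 and 0.50. With DESeq2 the ARID5B differences at 2 h and 8 h did not pass. The repressor gene BCL6 had a difference of 0.60 after 2 h and 0.43 after 8 h. The PGR neighbours ARHGAP42 and TMEM133 had differences of 0.75 and 2.32 after 4 h. That of ARHGAP42 was lost in 10 of the 14 other fits run, RLE scaling and the replicate block among them.

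For the other 11 list genes the T-47D log2 fold change lay below the Ishikawa one at 1 time or more. Of all genes tested, 1.28%, 2.83% and 4.7% had a smaller log2 fold change in T-47D cells at 2, 4 and 8 h. These shares are for single times, while the 11 genes passed at any of these times. The count was therefore not set against the shares. The difference at 2, 4 and 8 h was -1.34, -0.68 and -1.09 for KLF9, -0.46, -0.73 and -0.77 for TSC22D3, -0.63, -0.41 and -0.48 for TFAP2A, and -0.36, -0.34 and -0.60 for PGRMC2. At 4 h and 8 h it was -1.66 and -1.47 for HSD11B2, -0.75 and -0.92 for PAQR5, -0.41 and -0.47 for NRIP1, and -0.36 and -0.31 for DNAJB1, an HSP40. At 2 h and 8 h it was -0.73 and -0.37 for FOXA1 and -0.27 and -0.43 for NCOA3. For NR3C1 it was -0.64 at 8 h. Under the replicate block, the differences of PGRMC2 at 2 h and 4 h, NCOA3 at 2 h and KLF9 at 4 h were lost. At 8 h PAQR5 and PGRMC2 rose in Ishikawa and fell in T-47D cells. Of these 38 values, 25 stayed past the threshold in every other fit run, all chosen after seeing the data, and ESR1, FKBP4, HSD11B2 and DNAJB1 were among the genes for which every value did. With 2 libraries per group, single libraries were not tested as standing apart from their group.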

How the results depend on the processing

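Every PGR change against 0 h, every difference between the lines at the same time, and the line differences of the changes against 0 h and 2 h kept their direction and side of the threshold under all alternatives run, as did the Ishikawa changes from 2 h. With 1 library left out in turn, where the remaining replicate is assumed to vary like the other groups, PGR log2 fold changes at 2, 4 and 8 h ranged from 2.24 to 2.71, 3.45 to 3.92 and 3.51 to 4.01 in Ishikawa cells, and from 0.85 to 0.91, 0.96 to 0.97 and 1.03 to 1.15 in T-47D cells. From 2 h they ranged from 1.15 to 1.27 at 4 h and 1.07 to 1.51 at 8 h in Ishikawa and from 0.055 to 0.11 and 0.15 to 0.27 in T-47D cells. From 4 h to 8 h they ranged from -0.14 to 0.30 in Ishikawa, where the sign turned to -0.14 without replicate 2 of 8 h, and from 0.071 to 0.19 in T-47D cells. The line difference for 0, 2, 4 and 8 h ranged from 8.94 to 9.43, 7.52 to 7.63, 6.45 to 6.49 and 6.28 to 6.71. The difference of responses for 2, 4 and 8 h against 0 h ranged from -1.85 to -1.34, -2.96 to -2.47 and -2.94 to -2.43. It ranged from -1.16 to -1.07 from 2 to 4 h, -1.31 to -0.87 from 2 to 8 h, and -0.19 to 0.24 from 4 to 8 h, where the sign turned without Ishikawa replicate 1 (-0.19) or T-47D replicate 2 (-0.026) of 8 h. The steps of PGR between E2 times in T-47D cells did depend on the setting. The step from 2 to 4 h passed in a fit of only these groups (0.084, adjusted p = 0.029), that from 4 to 8 h passed with no filter on low counts (0.13, adjusted p = 0.00837), and the change from 2 h did not pass with the 4 h and 8 h libraries as 1 group (0.15, adjusted p = 0.0837). For none of these shifts was the cause tested.

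The main fits did not pair the libraries by replicate number, and the labels do not say whether cultures were paired. Deviations from group means of 2 libraries with the same number had correlations of -0.115 to 0.0595. Such values cannot show how the cultures were set up. The replicate block changed no PGR call. Of the list genes, the block ended the 2 h calls of ESR1 and BCL6 in Ishikawa and of ZBTB16 in T-47D cells. Genes of the lists other than PGR that rose at 2, 4 and 8 h numbered 6, 14 and 16 in Ishikawa and 9, 15 and 15 in T-47D cells, and those that fell 3, 5 and 7 and 8, 12 and 14. Of all genes tested, 2.61%, 7.66% and 12% rose and 1.74%, 6.6% and 10.1% fell in Ishikawa cells. In T-47D cells 4.9%, 11.1% and 15.4% of all genes rose and 4.4%, 10.4% and 14.3% fell. The total of list genes tested is not given here, so the list counts were not set against these shares. For these counts, the alternatives other than the threshold, DESeq2 and the block were chosen after seeing the data. DESeq2, RLE scaling, the minimum of 10 counts, counts divided by 2 and a fit of only the groups compared kept all of them within 1.5 times. Those that fell in Ishikawa cells became 1, 3 and 3 at an adjusted p of 0.01. At 0.1 and with no filter the 4 h count was 9, and under the replicate block the 2 h count was 1. With 1 library left out, the rising counts ranged from 4 to 9, 8 to 17 and 9 to 19 in Ishikawa and from 7 to 11, 11 to 16 and 13 to 16 in T-47D cells. Falling counts ranged from 1 to 4, 3 to 7 and 4 to 7, and from 6 to 8, 6 to 13 and 13 to 16. The low ends for rising genes in Ishikawa cells came without replicate 2 of 0 h (8 at 4 h, 9 at 8 h) or replicate 1 of 4 h (8 at 4 h). For falling genes they came without either replicate of 2 h (1), replicate 1 of 4 h (3), or replicate 2 of 0 h or of 8 h (4 at 8 h). In T-47D cells the falling count at 4 h was 6 without replicate 2 of 4 h and 7 without replicate 1 of 0 h. In fits of called list genes with a library of the groups compared left out, 403 kept the call, 93 lost it and 0 turned direction. A fit of only the groups compared ended 3 calls, of PPID at 4 h in Ishikawa (adjusted p = 0.0662) and FKBP5 at 8 h in both lines (0.0595 in Ishikawa, 0.0597 in T-47D). DESeq2 ended 1 call, PTGES3 at 4 h in T-47D cells (adjusted p = 0.144), and gave no adjusted p for 4 others of 124, ZBTB16 at 2 h and 4 h and TMEM133 at 4 h in T-47D and IGFBP1 at 8 h in Ishikawa cells. Depth limits the Ishikawa baseline, which rests on 63 and 46 counts, and dividing all counts by 2 left every PGR call in place.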
